A study of Mus musculus with 16 samples.

Results

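The liver difference between *Esr1* Nkx2-1-Cre mutant and *Esr1* fl/fl control females that both diets share was estimated from all 16 of the 16 liver libraries, 8 from mutants and 8 from controls. Members were chosen by label alone, and no measured value entered the choice. All mice were floxed at *Esr1*, the gene of oestrogen receptor alpha (ERα), on a mixed CD-1;129P2 background. Mutants (labelled Mutant) also had Cre recombinase under Nkx2-1 control, and controls (labelled Ctrl) carried the floxed alleles without it. All females were 27 weeks old. Mice of each genotype were fed either chow (labelled Chow) or a high-fat diet (HFD), the latter for 17 weeks, which gave 4 groups of 4 libraries: Control_Chow, Mutant_Chow, Control_HFD and Mutant_HFD. Nkx2-1 drives Cre in part of the hypothalamus, and it can also be active in other tissues that express the driver, so the liver changes of this model cannot be assigned to a tissue of origin.

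Library titles carry numbers that form 4 runs, each within 1 diet, and these title series were used as blocks so that a mutant was compared only with controls of its own series. Series L31x (chow) held 1 mutant and 2 controls, and L32x (chow) held 3 mutants and 2 controls. Series L23x (HFD) held 1 mutant and 3 controls, and L33x-L34x (HFD) held 3 mutants and 1 control. The labels do not say what the numbers mean. The 4 series carried 19.8%, 35.6%, 22.3% and 22.3% of the weight of the shared estimate, in that order.

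ERα is a nuclear receptor that changes transcription when it binds oestrogen, and in the hypothalamus it sets reproductive and energy-balance signals. The liver senses these signals at a distance, through pituitary growth hormone, sex steroids and nutrients. In rodents the pattern of growth hormone release differs between the sexes and maintains sets of female-biased and male-biased liver genes, many of which encode cytochrome P450 enzymes, sulphotransferases and major urinary proteins. The study placed the liver among tissues profiled in mutants, which have a high bone mass that HFD lowers, and the question here was which liver transcripts differed by genotype whatever the diet.

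Values are the gene table of the study, a length-adjusted share of the library on the TPM scale (transcript abundance corrected for transcript length) that was rescaled between libraries, and sequencing depth is unknown. Column totals ranged from 905897 to 1119703, and libraries held 11834 to 12443 genes at 1 or above. The 13 hepatocyte markers with values summed to 106000 to 131000 in mutants and 95600 to 116000 in controls, and the defining markers of other liver cells were low beside these. Mutant_Chow replicates 1 and 2 stood apart from the other 14 libraries, with neutrophil marker sums of 3140 and 6760 against 4.35 to 159 elsewhere. Mutant_HFD replicate 1 is the sole mutant of L23x, Mutant_Chow replicate 1 that of L31x, and Control_HFD replicate 4 is the sole control of L33x-L34x, so each decides the estimate of its series. No 2 libraries held identical values. Each library is 1 sample by its labels. The limma p-values set the genotype difference against the spread between samples that remains after title series and genotype are fitted.

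*Esr1*, the targeted gene (chromosome 10), was present in every liver library, and because its deletion is directed at the brain, the liver level does not check the labels. Mutants ranged from 6.42 to 22.9 with a median of 18.3, and controls from 6.14 to 15.9 with a median of 7.84. In L23x the mutant held 6.42, between its controls at 6.14, 7.52 and 8.09, and in L31x the mutant held 19.6 against 11 and 12.2. In L32x the mutants held 16.9, 9.98 and 8.02 against 7.59 and 15.9, and in L33x-L34x they held 22.9, 21.1 and 20.5 against 7.07. Groups overlapped, and the shared difference of 0.44 (standard error 0.232, log2 scale) did not pass the test (limma adjusted p = 0.603). *Fst*, which encodes the activin-binding protein follistatin, differed by 0.53 (standard error 0.309) and did not pass either (limma adjusted p = 0.632).

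Differences below are mutant minus control on the log2(value + 1) scale, on which low genes appear to change less than they do, and the threshold was a Benjamini-Hochberg adjusted p of 0.05 over 12704 tested genes. A gene is said to rise or fall only where it passed. In all, 6 genes passed. *Rps7*, *Zfp125*, *Sult1e1* and *Tafa2* rose, which is 0.0315% of the tested genes, and *Rps7-ps3* and *Hspb1* fell, which is 0.0157%. The values of *Rps7* and *Rps7-ps3* depend on how reads were divided between them, as described below, so they are not separate results. At an unadjusted p under 0.05, 669 genes (5.27%) were higher and 462 (3.64%) lower. Rescaling by median-of-ratios size factors gave 554 higher and 571 lower. Estimates lay above 0 for 54.7% of genes, with a median over all genes of 0.02. The same direction in all 4 title series was seen for 9.05% of genes on the higher side and 7.61% on the lower side. Values of the 8 mutants and the 8 controls did not overlap at all for 9 genes (0.0708%).

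**Figure D1:**
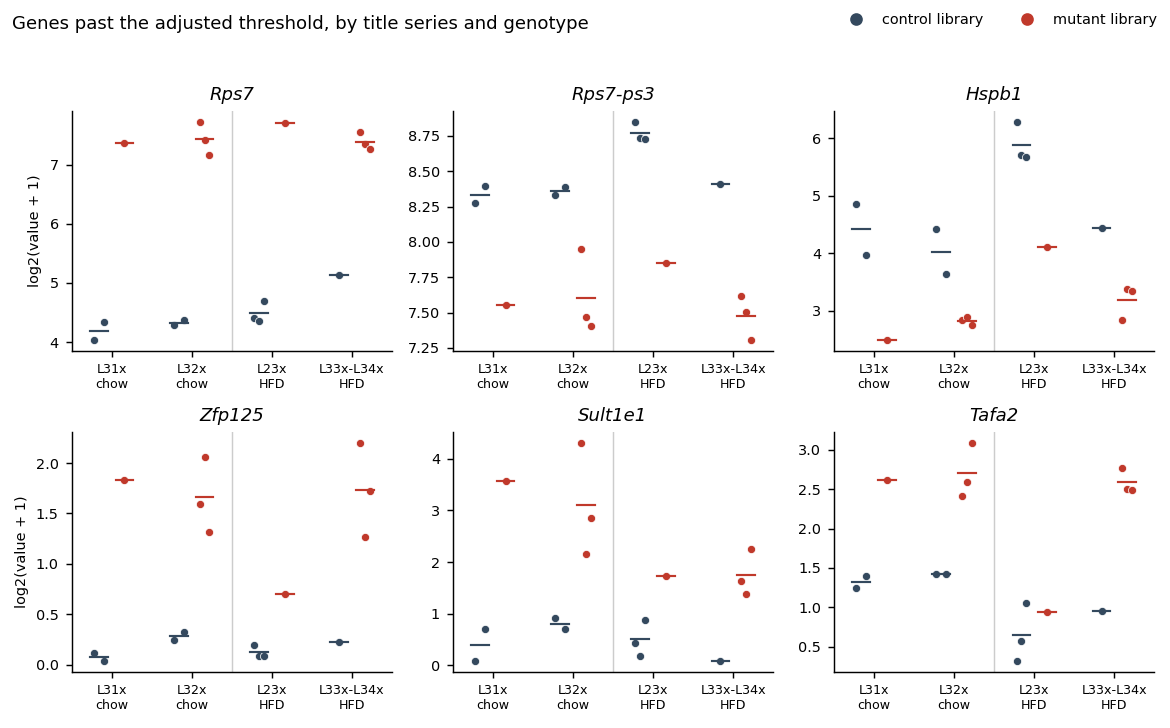
Values of the 6 genes past the adjusted threshold, plotted as log2(value + 1) for each library (points) and series mean (bars), with the title series and diet on the horizontal axis and the genotype in colour. *Rps7* was 143 to 210 in mutants against 15.5 to 34.3 in controls, and the mutant of L23x lies near its controls for *Tafa2*.

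*Rps7* encodes a protein of the small ribosomal subunit and showed the largest difference relative to its error. The 8 mutants ranged from 143 to 210 with a median of 166, and the 8 controls from 15.5 to 34.3 with a median of 19.6. The lowest mutant was thus far above the highest control, in each diet and in each series. The shared difference was 2.95 with a standard error of 0.136 (95% interval 2.66 to 3.24, limma adjusted p = 4.69e-08). By series it was 3.17 in L31x, 3.10 in L32x, 3.21 in L23x and 2.24 in L33x-L34x. The gene lies on GRCm38 chromosome 12 at 28630854 to 28635953 on the minus strand.

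*Rps7-ps3*, a transcribed processed pseudogene of *Rps7* on chromosome X (152909505 to 152910155, minus strand), moved the other way. Mutants ranged from 158 to 246 with a median of 184, and controls from 309 to 460 with a median of 337, again without overlap. It fell by 0.84 (95% interval -1.02 to -0.65, limma adjusted p = 8.1e-04), with series differences of -0.78, -0.75, -0.92 and -0.93 in the order L31x, L32x, L23x and L33x-L34x. The longest match of its 651-base transcript to an *Rps7* transcript of 954 bases held 4 mismatches and no gap, an identity of 99.39%. A read from the matched stretch that covers none of the mismatches cannot separate the genes, while the *Rps7* bases outside this stretch lie beyond the *Rps7-ps3* transcript. Whether those bases match other genes was not tested. The 3 mismatches within the *Rps7* coding sequence are shown because reads across them can tell the features apart, each in a window of 29 bases from the GENCODE M21 transcripts with the differing base in capitals and positions counted from base 1 of the *Rps7* transcript. They are T133G, G155A and G230T, written with the *Rps7* base first, and the remaining mismatch, G86A, lies in the untranslated part.
*Rps7* at 133: gagcgccaagatcgTgaagcccaatggcg
*Rps7-ps3* at 133: gagcgccaagatcgGgaagcccaatggcg
*Rps7* at 155: aatggcgagaagccGgacgagttcgagtc
*Rps7-ps3* at 155: aatggcgagaagccAgacgagttcgagtc
*Rps7* at 230: aaggcgcagctgcgGgaactcaacatcac
*Rps7-ps3* at 230: aaggcgcagctgcgTgaactcaacatcac

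The sum of the *Rps7* and *Rps7-ps3* values showed no such separation. It ranged from 309.3 to 455.5 in mutants with a median of 348, and from 324.2 to 480.6 in controls with a median of 363.9. The shared difference of the sum was -0.01 on the log2 scale (exact permutation test within series, two-sided p = 0.948). The division between the 2 features differed instead. *Rps7* took 45.9% to 49.1% of the sum in mutants and 4.22% to 9.18% in controls. Because the authors' program assigned reads to near-identical transcripts by estimation, the level of each feature on its own is uncertain. Whether sequence carried by the mice at either locus moved with genotype was not tested.

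*Hspb1* encodes a small heat shock protein that binds unfolded proteins and actin filaments. In L23x the mutant held 16.3 against controls at 77.2, 51.1 and 50.4. In L31x the mutant held 4.65 against 27.9 and 14.8. In L32x the mutants held 6.18, 6.42 and 5.74 against 20.3 and 11.5, and in L33x-L34x they held 6.15, 9.36 and 9.1 against 20.8. Every mutant lay below every control of its own series, and the groups overlapped only through the L23x mutant, whose 16.3 exceeded controls on chow at 11.5 and 14.8. *Hspb1* fell by 1.48 (standard error 0.179, 95% interval -1.87 to -1.10, limma adjusted p = 0.00389). Its difference was -1.46 on chow and -1.52 on HFD. It passed without each of the 16 libraries in turn, and did not pass without both Mutant_Chow replicates 1 and 2 (difference -1.39, limma adjusted p = 0.0658). It also missed the threshold without L32x, without L33x-L34x, with the libraries of either diet alone, and with no block.

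*Hspb1* belongs to a list of 30 genes for folding in the endoplasmic reticulum and the heat shock response. Of 29 tested members none was higher at an unadjusted p under 0.05 and 5 were lower, against 3.64% of all genes, and 1 of the 5 passed the adjusted threshold. The median of the list was 0.03 (0.11 on chow and -0.11 on HFD), and 15 of 29 estimates lay above 0. The 3 members with the smallest p were cytosolic chaperones. *Hsph1*, a nucleotide exchange factor of the HSP70 system, was 18.4 to 34 in mutants with a median of 22.7 and 20.4 to 64.9 in controls with a median of 42.7, a difference of -0.56 (limma adjusted p = 0.425). *Hspa8*, the constitutive HSP70, differed by -0.39 (limma adjusted p = 0.458), with -0.75 in L23x and 0.00 in L33x-L34x. The number of list members lower was 2 without Mutant_Chow replicate 1 or Mutant_HFD replicate 1 and 8 without Control_HFD replicate 4.

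The promoters of *Hspb1* and *Hsph1* are shown because heat shock factor binds inverted repeats of the triplet GAA, and these are the members that lead the list. The motif searched was GAANNTTC or TTCNNGAA, each its own reverse complement and so the same on both strands, in the 250 bases before each RefSeq start on GRCm38.p6, with matches in capitals. It occurs in 12.8% of 32851 promoters and, counted by gene, in 14.5% of genes. Promoters were at hand for 24 of the 30 list genes and 5 of these genes held the motif. Of the 5 lower members the 3 with a promoter at hand all held it. It was also held by *Hspa1a* and *Dnaja1*, which were not among the lower members. Because the lower members were chosen by these same values from a list of heat shock genes, their count describes them and adds no support. A match describes letters in the window and is not a bound site. *Hspb1* (chr5:135887669-135887918, plus strand) holds 2 matches, the first bases of which lie 117 and 97 bases before the start. *Hsph1* (chr5:149636316-149636565, minus strand) holds 1 match, which begins 54 bases before the start.
*Hspb1*: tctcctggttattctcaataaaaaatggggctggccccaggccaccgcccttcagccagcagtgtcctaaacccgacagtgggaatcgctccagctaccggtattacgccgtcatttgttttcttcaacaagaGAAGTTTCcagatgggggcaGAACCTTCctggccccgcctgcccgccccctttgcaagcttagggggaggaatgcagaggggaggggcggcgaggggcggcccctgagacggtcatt
*Hsph1*: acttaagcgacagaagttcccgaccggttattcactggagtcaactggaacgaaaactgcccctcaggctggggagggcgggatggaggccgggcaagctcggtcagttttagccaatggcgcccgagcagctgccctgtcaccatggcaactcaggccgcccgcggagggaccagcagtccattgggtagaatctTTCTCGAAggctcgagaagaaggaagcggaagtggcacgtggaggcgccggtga

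*Sult1e1*, the oestrogen sulphotransferase, which inactivates oestrogens by adding a sulphate group, rose from a very low level. The 8 controls lay between 0.0638 and 0.877 with a median of 0.492. The mutants held 10.9 in L31x, 18.8, 3.45 and 6.18 in L32x, 2.34 in L23x, and 2.09, 1.61 and 3.79 in L33x-L34x. No mutant overlapped with any control, and the highest values were those of Mutant_Chow replicates 2 and 1. The shared difference was 2.09 (standard error 0.326, 95% interval 1.39 to 2.79, limma adjusted p = 0.0385). It was 2.61 on chow and 1.45 on HFD, and this contrast between the diets did not pass (difference -1.16, unadjusted p = 0.0759). Without both Mutant_Chow replicates 1 and 2 the gene still passed (limma adjusted p = 0.0408). It passed without Mutant_HFD replicate 1 or 3, Mutant_Chow replicate 2 or 3, or Control_HFD replicate 3, and missed the threshold without any of the other 11 libraries (differences 1.82 to 2.21, limma adjusted p 0.0613 to 0.174).

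*Zfp125*, annotated as a transcribed unprocessed pseudogene of a zinc finger gene (chromosome 12, 20877084 to 20921262, minus strand), was near the limit of the table in controls, at 0.0275 to 0.255 with a median of 0.116. The mutants ranged from 0.627 to 3.59 with a median of 2.16 and did not overlap with the controls. The lowest mutant was that of L23x. The shared rise was 1.30 (standard error 0.181, limma adjusted p = 0.0151), and it missed the threshold without Mutant_Chow replicate 1 (limma adjusted p = 0.14), Control_Chow replicate 3 (0.0817) or 4 (0.0717), or Control_HFD replicate 4 (0.116).

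*Tafa2* encodes a small secreted chemokine-like protein known mainly from the nervous system. On chow the mutants held 5.11, 4.32, 5.05 and 7.49 against controls at 1.37, 1.65, 1.68 and 1.67. On HFD the L33x-L34x mutants held 5.82, 4.68 and 4.61 against 0.939, while the L23x mutant held 0.918, within its controls at 0.251, 0.482 and 1.08. Thus 7 of 8 mutants lay above every control. The shared rise was 1.14 (standard error 0.18, limma adjusted p = 0.0385), with a series difference of 0.29 in L23x against 1.63 in L33x-L34x. It passed without Mutant_HFD replicate 1 (difference 1.38, limma adjusted p = 0.00128), Control_HFD replicate 3 (0.00872) or Mutant_Chow replicate 2 (0.0469), and missed the threshold without any of the other 13 libraries (limma adjusted p 0.0613 to 0.242).

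A further 19 genes were named as the next by p-value that differed in the same direction in all 4 series. None passed the adjusted threshold (limma adjusted p 0.0899 to 0.209), and with the 6 above they made 13 higher and 12 lower genes. Of these 25, 18 had the smallest two-sided p that the exact permutation test within series can give over its 480 arrangements, 0.00208, and the largest was 0.00417. Because the same values ranked the genes, this describes them and adds no support.

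Among the higher genes, *Crybg2* lay at 1.75 to 13 in mutants and 0.419 to 1.65 in controls without overlap, a difference of 1.61 (standard error 0.286). *Nt5e*, the ectonucleotidase CD73 that forms adenosine outside cells, was 11.4 to 43.8 in mutants with a median of 35.6 and 8.89 to 33.1 in controls with a median of 14.3. *Pls1*, an actin-bundling plastin, differed by 0.77, and *Col4a3*, a chain of basement membrane collagen, by 0.68 from a control median of 0.385. *Cdt1*, which licenses origins of DNA replication, was 2.9 to 6.14 in mutants and 0.861 to 3.03 in controls (difference 0.67). The differences of *Sap30bp*, *Metrn*, *Frmd8* and *Cdc42se1* lay between 0.43 and 0.64, and the L23x difference of *Metrn*, a secreted neurotrophic factor, was 0.11 against 1.15 in L33x-L34x.

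The lower genes held both large and small differences. *Sult2a7*, a hydroxysteroid sulphotransferase, had a median of 1.58 in mutants and 41.5 in controls, and its estimate of -2.69 had a standard error of 0.601, with mutants from 0.441 to 47.7. *Cyp2d9*, a male-biased cytochrome P450, was 1.79 to 17.4 in 7 mutants and 45.6 in the L23x mutant, against 26.8 to 84.3 in controls (difference -2.23, standard error 0.454). The pseudogene *Gm7208* differed by -1.45. Small and tight differences were seen for *Paics*, a bifunctional enzyme of purine synthesis, at 105 to 127 in mutants and 129 to 171 in controls (difference -0.37, standard error 0.0775). *Mrps6*, of the mitochondrial ribosome, also showed no overlap, with 13.3 to 17.8 against 17.9 to 26.7. *Slc25a37*, which carries iron into mitochondria, differed by -0.40, *Exd2* by -0.35, *2310061I04Rik* by -0.30, the actin-binding palladin gene *Palld* by -0.51 and *Keg1* by -0.70. Cyp2d and Sult2a genes have close paralogues among which reads may be divided.

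**Figure D2:**
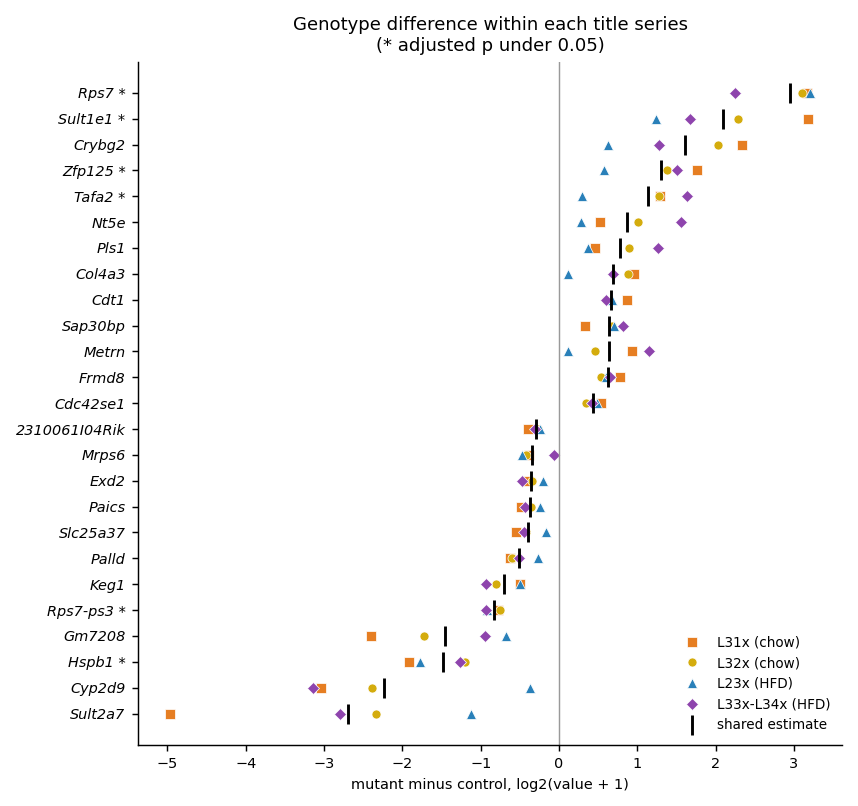
Mutant minus control difference within each title series (symbols) and the shared estimate (black bars) for the 25 genes, on the log2(value + 1) scale, with an asterisk for the 6 past the adjusted threshold. All 4 symbols lie on the same side of 0 by the choice of these genes. Those of L23x lie nearer to 0 than the shared estimate for *Cyp2d9* (-0.37), *Nt5e* (0.28), *Tafa2* and *Metrn*.

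The test of the difference between diets asked whether the genotype effect on HFD departed from that on chow. No gene passed it by limma (smallest adjusted p = 0.9996), and 446 genes (3.51%) had an unadjusted p under 0.05. Taken alone in the same fit, the chow effect passed for 1 gene, *Rps7* (0.00787% of genes), and the HFD effect for 2, *Rps7* and *Rps7-ps3* (0.0157%). Unadjusted, 1057 genes lay under 0.05 on chow and 568 on HFD. Of the 25 genes, *Crybg2* alone had an unadjusted p under 0.05 for the difference between diets (2.14 on chow, 0.95 on HFD, unadjusted p = 0.0326). A missed threshold does not show that the diets act alike, and for *Sult1e1* the HFD minus chow estimate of -1.16 is large beside its shared effect. For *Rps7* the chow and HFD effects were 3.13 and 2.73, and for *Zfp125* 1.51 and 1.04. *Hspb1*, *Frmd8* and *Metrn* differed between diets by 0.06 or less.

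**Figure D3:**
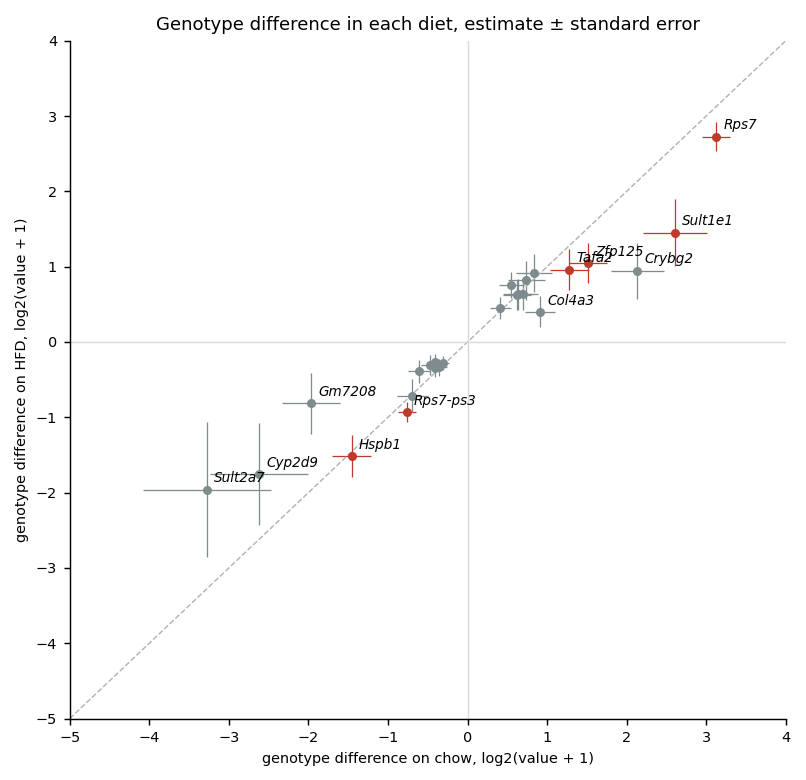
Genotype difference on chow (horizontal axis) against that on HFD (vertical axis) for the 25 genes, on the log2(value + 1) scale with standard errors as bars, red for the 6 past the adjusted threshold and a dashed line of equal effects. *Rps7* (3.13, 2.73) and *Hspb1* (-1.46, -1.52) lie near the line, and *Crybg2* (2.14, 0.95) and *Gm7208* (-1.97, -0.81) are nearer to 0 on HFD.

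By position, 2 of the 6 genes, *Rps7* and *Zfp125*, lie on chromosome 12 with starts 7.75 megabases apart, and *Hspb1* and *Sult1e1* lie on chromosome 5 with starts 48.31 megabases apart. The level of *Rps7* apart from *Rps7-ps3* on chromosome X is uncertain, as stated above. Chromosome 12 held 447 tested genes, of which 32 were higher and 22 lower at an unadjusted p under 0.05. This share of 12.1% compares with 8.90% over all tested genes, and the other autosomes lay between 6.45% (chromosome 11) and 10.9% (chromosome 19).

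No tested sex-biased liver gene of either list passed the adjusted threshold in the fit of all 16 libraries. All lists were chosen with earlier results of these data known, so list counts describe them and add no support. Of 35 female-biased genes, 11 were higher and 2 lower at an unadjusted p under 0.05, against 5.27% and 3.64% of all genes. The 2 lower were *Cyp2b13* (-2.31) and *Fmo2* (-0.46), named after their values were seen. The median of the list was 0.14 and 23 estimates lay above 0. This median was 0.26 without Mutant_Chow replicate 2, 0.21 without replicate 1, 0.33 without both, and 0.32 with 16 genes higher when diet was the only block. It was 0.11 without Control_HFD replicate 4 and 0.12 with median-of-ratios size factors. *Cyp17a1*, which makes androgen precursors, was 20.2 to 74.8 in 7 mutants, 1.77 in the L23x mutant and 0.881 to 7.22 in controls. Its estimate was 2.53 (limma adjusted p = 0.161), with -0.63 in L23x and 4.93 in L33x-L34x. *Cyp3a41b* and *Cyp3a16*, female-predominant P450 enzymes of closely similar sequence, differed by 2.13 and 1.10 (limma adjusted p = 0.286 and 0.275), each with 7 of 8 mutants above every control. The list mean by library ranged from 5.03 to 6.74 in mutants and 4.78 to 6.27 in controls on the log2 scale. The number higher was 8 without Mutant_Chow replicate 1. Without Control_HFD replicate 4 it was 5, and without Mutant_HFD replicate 1 it was 14. In the latter fit 2 list members passed the adjusted threshold, *Cyp17a1* among them.

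Of 28 tested male-biased genes, 10 were lower and 1 higher at an unadjusted p under 0.05, against 3.64% and 5.27% of all genes. None passed the adjusted threshold in the fit of all 16 libraries, and the median was -0.27 with 20 estimates below 0. *Cyp2d9* led them. *Mup7* and *Mup1*, which encode urinary pheromone carriers that belong to a family of near-identical genes, differed by -2.18 and -2.44 (limma adjusted p = 0.274 and 0.392). *Mup1* was 99 in the L31x mutant against 656 and 1063, and 101, 99.3 and 167 in the L33x-L34x mutants against 3645. In L23x the mutant at 1648 lay above its controls at 1249, 1617 and 1275. With diet as the only block, 7 members of the male-biased list were lower and 2 higher (median -0.22). The number lower was 8 without both Mutant_Chow replicates 1 and 2, 5 without replicate 1 and 6 without replicate 2 or without Control_HFD replicate 4. It was 12 without Mutant_HFD replicate 1, where 1 member, *Cyp2d9*, passed the adjusted threshold.

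**Figure D4:**
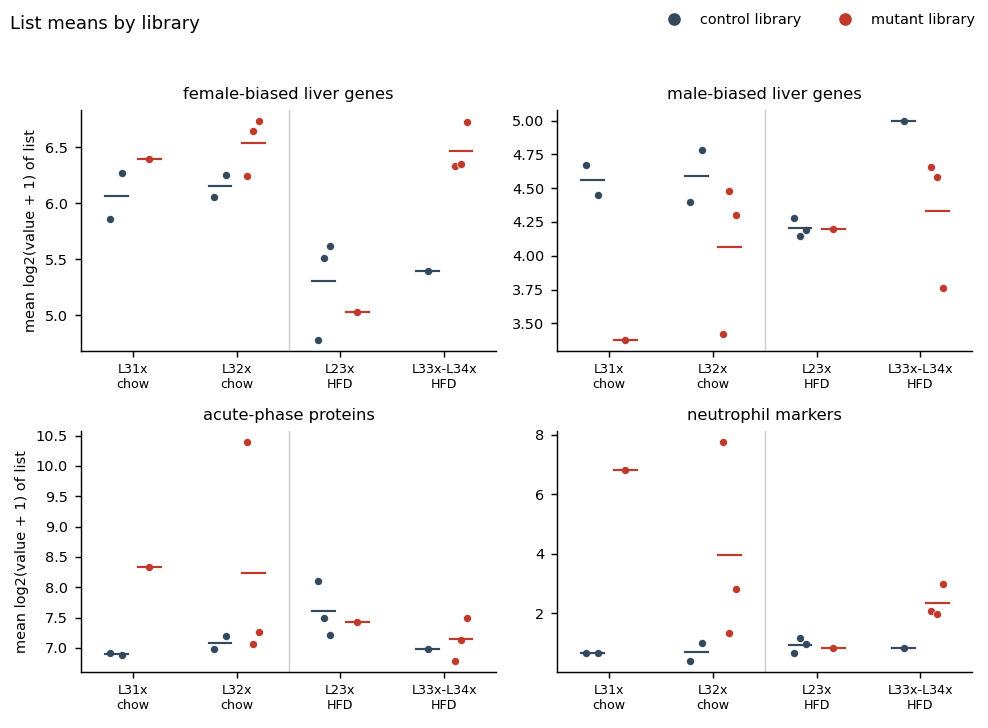
Mean log2(value + 1) over the tested members of 4 lists, for each library (points) and series mean (bars), by title series and genotype. In L31x, L32x and L33x-L34x the mutant mean of the female-biased list lies above the control mean and that of the male-biased list below it, in L23x the mutant lies at 5.03 and 4.20 within its controls (4.78 to 5.62 and 4.15 to 4.28), and the neutrophil mean reaches 6.81 and 7.76 in Mutant_Chow replicates 1 and 2 against 0.403 to 2.98 elsewhere.

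Growth hormone acts on hepatocytes through its receptor and the kinase JAK2. Of 26 tested genes of its signalling, 4 were higher and 1 lower at an unadjusted p under 0.05, against 5.27% and 3.64% of all genes. The list median was 0.07. The median was -0.0018 with 13 of 26 estimates above 0 without Mutant_Chow replicate 2, and -0.05 without both Mutant_Chow replicates 1 and 2. *Prlr*, the prolactin receptor, was 108 to 444 in mutants with a median of 332 and 94.7 to 231.6 in controls with a median of 180 (difference 0.55, limma adjusted p = 0.275). *Ghr*, the growth hormone receptor, differed by 0.28 (limma adjusted p = 0.405). *Igfbp1*, a binding protein of insulin-like growth factors, differed by 1.04, with 0.06 in L23x and 2.32 in L33x-L34x. Without Mutant_Chow replicate 1 the number higher was 2, and without Mutant_HFD replicate 1 *Prlr* passed the adjusted threshold.

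Of the enzymes that modify steroids and drugs, *Sult1e1* alone passed the adjusted threshold with title series as blocks and all 16 libraries. Without Mutant_HFD replicate 1, members past it numbered 2 in the P450 list, 2 in the steroid list and 1 among glucuronosyltransferases. Among 36 P450 genes of drug metabolism, 8 were higher and 11 lower at an unadjusted p under 0.05 (median -0.10). Most of the higher ones, *Cyp3a16* and *Cyp3a41b* among them, were already counted in the female-biased list, and *Cyp2d9* in the male-biased list. The shares over all genes, for every list of this paragraph, were 5.27% higher and 3.64% lower. *Cyp2c67* differed by -0.99 (20.9 to 97.4 in mutants, 66.6 to 131 in controls). The number higher was 3 without Control_HFD replicate 4, and the number lower was 6 without both Mutant_Chow replicates 1 and 2. Among 27 genes of steroid sulphation, oxidation and reduction, 3 were higher, with *Sult1e1* past the adjusted threshold, and 6 lower (median -0.10). *Hsd17b11*, a steroid-oxidising enzyme of lipid droplets, differed by -0.54 (limma adjusted p = 0.216). The number lower was 2 without Mutant_Chow replicate 1 and 3 without Control_HFD replicate 4. Of 17 glucuronosyltransferases, 3 were higher and 4 lower (median -0.14). With diet as the only block, the glucuronosyltransferase median was 0.11 with 10 of 17 estimates above 0, 4 higher, 2 lower and 1 past the adjusted threshold, the steroid median was 0.06 and the P450 median 0.01. *Ugt2b37* was 3.63 to 10.1 in 7 mutants, 0.26 in the L23x mutant and 0.105 to 1.01 in controls, a difference of 1.45 (limma adjusted p = 0.0969). *Ugt3a1* differed by -0.44 and *Ugt1a6b* by 0.28, and the number of glucuronosyltransferases lower was 1 without Mutant_Chow replicate 1 and 2 without Control_HFD replicate 4. Of 28 glutathione transferases and Nrf2 targets, 1 was lower, *Gstk1* (difference -0.28), and none higher (median -0.07). *Mgst1* (-0.12) and *Gsta4* (-0.23) did not reach an unadjusted p under 0.05.

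Nuclear and hormone receptors held 3 higher and 2 lower of 25 (median -0.01), against 5.27% higher and 3.64% lower over all genes. These counts are not separate from those of other lists. The higher *Prlr* and *Ghr* were already counted in the growth hormone list. The lower *Nr1h4* and *Nr0b2* are counted again among the bile acid genes, and *Slco1a1* of that list is also in the male-biased list. *Nr0b2*, the small heterodimer partner that represses bile acid synthesis, differed by -0.76 (9.65 to 78.1 in mutants, 32.4 to 108 in controls), and *Nr1h2* by 0.13. No receptor was lower without Control_HFD replicate 4. Bile acid synthesis and transport held 4 lower and none higher of 27 (median -0.09), with *Slco1a1* at -0.58 and the bile acid receptor gene *Nr1h4* at -0.25. The direction of *Slco1a1* turned to 0.04 with diet as the block in place of series. The number of bile acid genes lower was 1 without Mutant_Chow replicate 1, 2 without replicate 2 and 0 without Control_HFD replicate 4.

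Acute-phase proteins, which the liver secretes in inflammation, lay above 0 in 30 of 30 tested genes, against 54.7% of all genes, with a median of 0.44. The list median was 0.91 on chow and 0.02 on HFD, where L23x held -0.16, and the difference of these medians was not tested. Only 4 had an unadjusted p under 0.05, against 5.27% of all genes on the higher side, and none passed the adjusted threshold. *Mt2*, a metallothionein, was 734 in the L31x mutant against 19.5 and 31.7, and 5541, 174 and 207 in the L32x mutants against 23.7 and 56.9. In L33x-L34x it was 32.9, 276.2 and 338.1 against 32.5, and in L23x 35.8 against 43.1, 40 and 36.5. *Mt2* differed by 2.81, *Mt1* by 1.82 and *Cp*, the copper carrier ceruloplasmin, by 0.77 (limma adjusted p = 0.392, 0.451 and 0.516). The summed level of the list was 22600 to 156000 in mutants and 18100 to 45200 in controls, with the highest sum in Mutant_Chow replicate 2. Without both Mutant_Chow replicates 1 and 2, 17 of 30 estimates lay above 0 and the median was 0.05, and without Mutant_HFD replicate 1, 9 genes were higher at an unadjusted p under 0.05.

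By library, the summed acute-phase level was 156000 in Mutant_Chow replicate 2, 45200 in Control_HFD replicate 1 and 42000 in Mutant_Chow replicate 1, with neutrophil marker sums of 6760, 8.18 and 3140. Of 10 tested neutrophil markers all 10 estimates lay above 0, and the median was 2.66. An unadjusted p under 0.05 was seen for 8, against 5.27% of all genes on the higher side. *S100a8* and *S100a9*, calcium-binding proteins of neutrophils, differed by 4.26 and 3.96 (limma adjusted p = 0.343 and 0.382), and *Camp*, an antimicrobial peptide of their granules, by 3.19. *S100a8* was 1079 and 2693 in Mutant_Chow replicates 1 and 2, 8.22 to 55.5 in 5 further mutants, 3.95 in the L23x mutant and 0.726 to 7.12 in controls. The marker sum was 14.5 to 6760 in mutants with a median of 94.5, and 4.35 to 26.7 in controls with a median of 10.7, and no marker was at 0 in every library. Without both Mutant_Chow replicates 1 and 2 the median was 0.92 and 7 of 10 had an unadjusted p under 0.05, and without replicate 1 alone 4 had. The neutrophil median was 4.16 on chow and 0.79 on HFD. In these bulk libraries more cells of a type and more RNA per cell cannot be told apart. The part of neutrophil RNA in the other results was not tested.

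Kupffer cell markers lay above 0 in 13 of 13 genes with a median of 0.31 (0.58 on chow and -0.0093 on HFD), and none had an unadjusted p under 0.05. Without both Mutant_Chow replicates 1 and 2 this turned to 3 of 13 and a median of -0.15, and without replicate 1 alone to 6 of 13. The examples with the smallest p were *Slc40a1* (0.22), *C1qa* (0.41) and *C1qc* (0.39). Counts in the lists that follow stand beside 5.27% of all genes higher and 3.64% lower. Complement and coagulation genes held 7 higher and none lower of 37 (median 0.14, 0.27 on chow and -0.08 on HFD, where none was higher and 1 lower), with *F11* at 0.30, *F7* at 0.28 and *Mbl2* at 0.27. Without both of those libraries 1 was higher and 5 were lower, without Mutant_Chow replicate 1 alone 1 was higher, and without Control_HFD replicate 4, 2 were. Interferon response genes held 3 higher and none lower of 33 (median 0.03), with the antiviral synthetases *Oas2* at 0.63 and *Oas1a* at 0.58 and *Stat2* at 0.26, and 1 was higher without Mutant_Chow replicate 1. Immediate early genes held 1 higher of 24 (median 0.18, 0.34 on chow and -0.13 on HFD), *Ier3* (0.48), with *Klf4* (0.33) and *Klf2* (0.31) next, 6 were higher without Mutant_HFD replicate 1, and none was without Mutant_Chow replicate 1 or 2 or Control_HFD replicate 4.

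Genes of energy metabolism lay mostly slightly below 0. Oxidative phosphorylation held 6 lower and none higher of 41 at an unadjusted p under 0.05, against 3.64% and 5.27% of all genes. In this list 34 estimates lay below 0, with a median of -0.13. *Atp5a1*, of ATP synthase, was 449 to 626 in mutants and 541 to 736 in controls (difference -0.22), *Sdha* differed by -0.31 and *Ndufb5* by -0.19. With diet as the block in place of series, 15 were lower and no estimate lay above 0, and without both Mutant_Chow replicates 1 and 2, 2 were lower and 19 estimates lay above 0. The number lower was 2 without Mutant_Chow replicate 1 and 3 without Mutant_HFD replicate 1. Fatty acid oxidation and PPARα targets lay below 0 in 29 of 34 genes (median -0.17), with 1 at an unadjusted p under 0.05, *Cyp4a14*. This ω-hydroxylase was 1.61 to 307 in mutants with a median of 203 and 208 to 608 in controls with a median of 327.7, and its estimate of -2.36 drew on -6.03 in L31x. *Ehhadh* differed by -0.45. Of the 34 estimates, 19 lay above 0 without both Mutant_Chow replicates 1 and 2. The number lower was 0 without Mutant_Chow replicate 1 and 3 without Mutant_HFD replicate 1.

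Cholesterol synthesis held no gene at an unadjusted p under 0.05 of 25, with 19 estimates above 0 and a median of 0.23. *Sqle*, squalene epoxidase, was 1.87 to 72.1 in mutants and 1.46 to 81.9 in controls, an estimate of 0.87, with -0.08 in L23x. *Nsdhl* (0.70) and *Hmgcs1* (0.57) followed. Without Mutant_HFD replicate 1, 7 were higher at an unadjusted p under 0.05. Lipogenesis held 1 higher of 24 (median -0.07), *Pnpla3* (0.88), with the transcription factor gene *Mlxipl* at -0.30 and the acyltransferase gene *Dgat1* at -0.09. Lipid droplet genes held 2 higher and 1 lower of 20 (median -0.04), with *Plin3* at 0.27, *Abhd5* at 0.29 and *Cidec* at -0.37, the latter not at an unadjusted p under 0.05. Gluconeogenesis and fasting genes held 1 higher of 26 (median -0.05), *Igfbp1*, with *Pfkfb1* at -0.19 and *Fbp1* at -0.16. Urea cycle and amino acid genes held 2 higher and 2 lower of 37 (median -0.05), with *Nnmt* at 0.98 and *Kmo* at -0.23 and *Aass* at -0.28. Over all genes 5.27% were higher and 3.64% lower, and the small counts of these lists are not read as results. Counts of 1 or 2 in these lists moved to between 0 and 3 when 1 of Mutant_Chow replicate 1, Mutant_Chow replicate 2, Mutant_HFD replicate 1 and Control_HFD replicate 4 was left out.

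Core clock and clock output genes held 3 lower and none higher of 27 (median -0.16), against 3.64% and 5.27% of all genes. *Per2*, a repressor of the clock, differed by -0.64, *Ciart* by -1.47 and *Usp2* by -0.97 (limma adjusted p = 0.444, 0.444 and 0.485). All 3 were near level in L33x-L34x (0.05, -0.16 and -0.10) and lower in L23x (-1.04, -2.50 and -1.72). The number lower was 1 without Mutant_HFD replicate 1 and 5 without Control_HFD replicate 4. The labels give no time of collection. Secreted liver proteins with reported actions on bone or metabolism held 6 higher and 2 lower of 44 (median 0.12), with *Igf2* at 0.60, *Igfbp1* at 1.04 and *Enho*, which encodes adropin, at 0.74. Without Mutant_Chow replicate 1 or Control_HFD replicate 4, 3 were higher and 1 lower, and without both Mutant_Chow replicates 1 and 2, 1 was higher and 1 lower.

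No member of the remaining marker lists passed the adjusted threshold. The counts below stand beside 5.27% of all genes higher and 3.64% lower at an unadjusted p under 0.05. Hepatocyte markers held 1 higher and 1 lower of 13 (median 0.03), *Serpina1a* (0.23) and *Cyp2e1* (-0.53), with *Serpina1c* at 0.24. Stellate cell markers held none of 13 (median 0.05), with *Lum* at 0.31 and *Reln* at -0.23. Endothelial markers held none of 12 (median 0.05), with *Cdh5* at 0.25, *Clec4g* at 0.11 and *Pecam1* at 0.12. Cholangiocyte markers held none of 5 (median 0.05), with *Krt19* at -0.22, *Sox9* at -0.09 and *Spp1* at 0.11. Lymphocyte markers held none of 9, with 8 estimates above 0 (median 0.10), with *Cd3g* at 0.34, *Nkg7* at 0.61 and *Cd2* at 0.20. Red cell markers held 1 higher of 7, with 7 estimates above 0 (median 0.32), *Bpgm* (0.32), with *Hbb-bt* at 0.53, and 3 were higher without Mutant_Chow replicate 1 and none without Control_HFD replicate 4. Of markers of neighbouring tissues, 1 of 3 pancreas genes was lower, *Cela1* (-0.60), which missed an unadjusted p under 0.05 without Mutant_Chow replicate 1 or Control_HFD replicate 4, with *Ctrc* at 0.22 and *Cela2a* at 0.16. Adipose markers held none of 5, with 5 estimates below 0 (median -0.10), with *Fabp4* at -0.10 and *Car3* at -0.57, and muscle markers none of 2, with *Ckm* at -0.06 and *Mylpf* at 0.16.

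**Figure D5:**
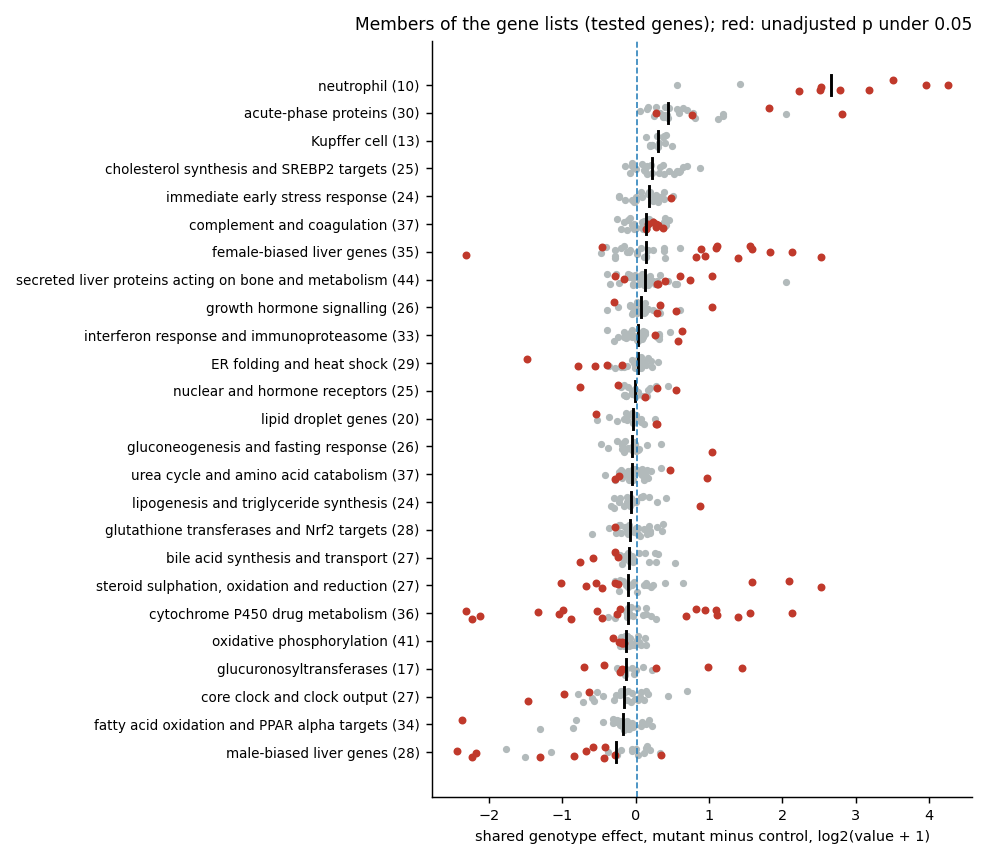
Shared genotype effect (horizontal axis, log2(value + 1) scale) of each tested member of 25 lists, 23 of pathways and 2 of markers (neutrophil, Kupffer cell), with the number tested in brackets, list medians as black bars and the median of all genes as a dashed line. Members at an unadjusted p under 0.05 are red, and neutrophil markers (median 2.66) and acute-phase genes (median 0.44) lie farthest above 0.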

How the data were processed

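Total RNA of 16 livers was sequenced (NEBNext Ultra II libraries, NovaSeq). Reads were pseudoaligned by the authors with kallisto (mouse build mm10, per the submitters' processing notes), and sleuth served for gene-level tests. Versions, annotation release and filters are not given in the sources used here. The deposited table gives each gene a signal, a TPM-like value that size factors had rescaled between libraries, a unit inferred from fractional values with unequal column totals. Depth cannot be recovered from it, and counting error is not given. The table lists 15544 identifiers, of which 5 have no symbol and 17 share 8 symbols.

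Groups came from the genotype and treatment labels, and replicates were numbered in sample order. The 12704 genes reaching 1 in 4 libraries or more were fitted on log2(value + 1) with limma 3.58.1 in R 4.3.3, with title series as 4 blocks and 1 additive genotype term. Residual degrees of freedom were 11, and empirical Bayes moderation used a trend of variance on mean. P-values were adjusted by the Benjamini-Hochberg method over all tested genes. The study's likelihood-ratio test needs estimates that the gene table does not carry. A second fit added genotype by diet. Single genes were also permuted within series over all 480 arrangements, two-sided.

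The genes named were *Esr1* and *Fst* (of the study's other genes Ccn3, Nkx2-1, Penk and Grp are not analysed here), all genes past the threshold (at most 30), the next by p-value with 1 direction in all 4 series until 25 were reached, and the 3 members of each list with the smallest p, of which 2 genes are not reported here. The 34 lists (23 of pathways, 11 of markers) and the members were chosen with earlier results of these data known. Lists are described by counts and medians without a test. They share members, so a gene can be counted in more than 1 list. Positions came from GENCODE M21 on GRCm38, which matched 15531 identifiers. Transcript alignment used Biopython 1.88, and promoters came from RefSeq. The fit was tested on simulated data. Alternatives were other blocks, pseudocount, filters, scalings, library weights, variance model, each diet alone, and leaving out libraries or series. Library weights with diet as the only block, the omission of both Mutant_Chow replicates 1 and 2, and list counts without single libraries were added after seeing the data.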

Additional observations from a re-analysis of the deposited data

Results flagged for a closer look

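In groups of 4 libraries, 27 of 460 tests over 115 named genes found 1 library apart from the other 3, and chance flags about 1 in 20 groups. The measure was the gap to the nearest library as a share of the range, beyond Dixon's 95% critical value. It can flag a small gap where the other 3 lie close together. Of these, 8 were in Mutant_HFD replicate 1, the sole mutant of L23x. There *Esr1* was 6.42 (others 20.5 to 22.9), *Tafa2* 0.918 (4.61 to 5.82), *Cyp3a16* 31.7 (320.4 to 460.4), *Prlr* 108.1 (354.8 to 444.3), *Ciart* 4.05 (23.7 to 32.7), *F11* 51.7 (100.3 to 105.5), *Cidec* 4.12 (8.28 to 8.99) and *Dgat1* 26.7 (17.0 to 17.4). Control_HFD replicate 4, the sole control of L33x-L34x, held *Igfbp1* at 2.76 (23.2 to 26.5), *Nr1h2* at 29.8 (42.7 to 43.4), *Slco1a1* at 275.2 (58.0 to 73.8), *F11* at 99.0 (41.2 to 43.7), *Nnmt* at 16.5 (69.0 to 80.7) and *Slc40a1* at 145.9 (99.5 to 102.9).

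In Control_Chow replicate 1, *Tafa2* was 1.37 (others 1.65 to 1.68), *Gsta4* 103.8 (126.8 to 131.8) and *Camp* 0.406 (0.104 to 0.144). In replicate 2, *Exd2* was 10.8 (8.59 to 8.92), *Pls1* 3.73 (1.65 to 1.85) and *Car3* 3360 (1790 to 1967). In replicate 3, *Plin3* was 19.6 (20.93 to 20.96) and *S100a8* 0.726 (1.824 to 2.055), and in replicate 4 *Mup7* was 57.3 (18.3 to 19.9). In Mutant_Chow, *Ugt2b37* was 3.63 in replicate 1 (5.14 to 5.32), *Ier3* 4.11 in replicate 2 (1.188 to 1.355) and *Col4a3* 2.44 in replicate 3 (1.67 to 1.74). In Control_HFD replicate 1, *Cela2a* was 2.24 (0.947 to 1.04).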

How the results depend on the processing

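The number of genes past the adjusted threshold for the shared effect (6) was most affected by blocks and libraries. It was 12 with diet as the only block, 3 with values of 5 or more required, 19, 3, 2 and 2 without L23x, L31x, L32x and L33x-L34x, and 3 with HFD libraries alone. It ranged from 3 to 28 without 1 library, with 28 without Mutant_HFD replicate 1 and 3 without Mutant_Chow replicate 1, Control_Chow replicate 3 or 4, or Control_HFD replicate 4. Both alternatives chosen after seeing the data moved it, to 35 with library weights and diet as the only block and to 3 without both Mutant_Chow replicates 1 and 2. Genes at an unadjusted p under 0.05 (1131) numbered 740 without L33x-L34x, 688 with chow libraries alone, 737 with HFD libraries alone, 2178 with library weights and diet as the only block, and 817 to 1389 without 1 library. Median-of-ratios size factors moved the share of these that was higher from 59.15% to 49.24%. *Rps7* passed in 33 of 33 alternatives, *Rps7-ps3* in 32, *Hspb1* in 27, *Zfp125* in 22 of 32, *Sult1e1* in 15 of 32 and *Tafa2* in 11 of 33. The highest limma adjusted p was 0.00994 for *Rps7* and 0.448 for *Rps7-ps3*, with HFD libraries alone and with chow libraries alone, respectively. Without both Mutant_Chow replicates 1 and 2, *Zfp125* (0.181) and *Tafa2* (0.221) missed the threshold by limma adjusted p. The causes were not tested.

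Within chow the count (1) was 2 with a pseudocount of 0.1 and with library weights, 3 with diet as the only block and 1 to 13 without 1 library (12 without Mutant_HFD replicate 1 or Control_HFD replicate 4, 13 without Mutant_Chow replicate 3). Within HFD the count (2) was 1 without a filter and 1 to 24 without 1 library (24 without Mutant_HFD replicate 1). The difference between diets gave 0 to 1 genes without 1 library, the 1 being *Ribc1* without Control_HFD replicate 4, named after its value was seen, and 377 to 698 genes at an unadjusted p under 0.05 (698 without Mutant_Chow replicate 3).

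No gene past the threshold changed direction. Among the other named genes, signs turned as follows. With library weights and diet as the only block, *Nr1h2* was -0.074, *Slco1a1* 0.46, *Pfkfb1* 0.10, *Usp2* 0.051, *Serpina1c* -0.019, *C1qa* -0.12, *C1qc* -0.0060, *Cd2* -0.029 and *Mylpf* -0.42. With diet as the only block or no block, *Slco1a1* was 0.038 and *Mylpf* -0.17. Without both Mutant_Chow replicates 1 and 2, *C1qc* was -0.037, *Cdh5* -0.00047, *Pecam1* -0.14, *Spp1* -0.025, *Nkg7* -0.087 and *Mylpf* -0.053. *Pecam1* was -0.012 with library weights, -0.042 without L31x or Mutant_Chow replicate 1 and -0.094 with HFD libraries alone, and *Mylpf* was -0.074 without L31x or Mutant_Chow replicate 1. Without 1 library, *Pecam1* ranged from -0.042 to 0.18, *Krt19* from -0.27 to 0.00044 and *Mylpf* from -0.074 to 0.36. *Krt19* was 0.00044 without L33x-L34x or Control_HFD replicate 4 and 0.011 with chow libraries alone, where *Ctrc* was -0.037. Without L32x, *Fabp4* was 0.017 and *Ckm* 0.0095.

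No paired analysis was possible because the labels carry no replicate numbers. Depth is unknown, so what depth limits cannot be stated.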
